A study of Mus musculus with 14 samples.

Results

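Ifitm1, Ifitm2, Ifitm3, B2m, H2-K1, H2-D1, Tap1, Tapbp, Psmb8 and Bst2 are 10 genes of antiviral membrane defence and of antigen presentation by MHC class I, and their levels were followed as mouse embryonic stem cells (ESCs) were turned toward extraembryonic endoderm (XEN). They were chosen by symbol, and each was found once, giving 10 of the 23174 rows of the deposited table. PolyA RNA of 14 libraries had been sequenced. Embryonic stem cells of 4 lines on a 129S1/SVImJ background gave 1 library each at 3 stages, and the XEN lines XEN5 (129S1/SVImJ) and XENB1 (129S1), both wild type, gave 1 library each. WT3 carries intact Zfp281, KO2.6 and KO3.34 are null for it, and Rescue3.34 is KO3.34 with Zfp281 put back. Zfp281 is a zinc finger transcription factor, and the series asks whether it holds back the passage from ESC to XEN. The cell line field of KO2.6 gives another number than its title, and the title was followed. ESC is the undifferentiated, feeder-free stage in serum and LIF. Stage cXENp1 is passage 1, after 48 hours in XEN medium with 0.01 µM all-trans retinoic acid and 10 ng/mL activin A. Stage cXENp3 is passage 3, after passage 2 on iMEF feeders. XEN5 and XENB1 grew without feeders in MEF-conditioned medium. WT and Rescue are a single line each, and the labels do not say that lines are clones, how Zfp281 was put back, or whether libraries came from separate cultures, so the p-values below measure only the spread between these libraries.

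The 3 Ifitm genes encode small interferon-induced transmembrane proteins that hinder the fusion of enveloped viruses with cell membranes, and pluripotent stem cells express some of them without added interferon. Bst2 encodes tetherin, an interferon-induced protein that holds budding virus particles at the cell surface. MHC class I molecules pair a heavy chain, such as the H2-K1 or H2-D1 product, with the light chain beta-2-microglobulin (B2m), and carry peptides to the surface for T cells. Psmb8 encodes a catalytic subunit of the immunoproteasome, which cuts proteins into such peptides. Tap1 encodes a subunit of the transporter that moves peptides into the endoplasmic reticulum, and Tapbp encodes tapasin, which bridges that transporter and the waiting heavy chain. ESCs are known for low surface MHC class I.

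The stretches before the gene starts are shown because interferon and NF-kB control many of these genes, and the letters show which of the known response motifs each carries. All 10 genes matched the RefSeq promoter table (GRCm38.p6), which holds 250 bases before and 50 after each start. Both strands of this window were searched for 3 motifs. Only exact matches were counted, so a response site that departs from these letters is missed, and a window without a match may still hold one. The first, the core of interferon-stimulated response elements, is GAAA, any 2 bases and GAAA. The second, TTCNNNGAA, is the gamma-activated site read by STAT factors. The third, a palindromic NF-kB site, is GGGGA, any base and TCCCC. Capitals mark the matches, each stretch is printed 5′ to 3′ on the gene's strand, and positions count from the first transcribed base as 0. Bst2 (chr8:71537473-71537722, minus strand) holds overlapping matches, namely a gamma-activated site from -136 and interferon response cores from -130 and -124. B2m (chr2:122147437-122147686, plus strand) holds an interferon response core from -139, and Ifitm2 (chr7:140955962-140956211, minus strand) holds it from -46. H2-K1 (chr17:34000348-34000597, minus strand, the first of 2 promoters listed) and H2-D1 (chr17:35262844-35263093, plus strand) hold the NF-kB palindrome from -111 and -171. For Ifitm3 only the 27 bases that span its matches are shown (chr7:141010716-141010742, minus strand), because they lie after the start.
Bst2: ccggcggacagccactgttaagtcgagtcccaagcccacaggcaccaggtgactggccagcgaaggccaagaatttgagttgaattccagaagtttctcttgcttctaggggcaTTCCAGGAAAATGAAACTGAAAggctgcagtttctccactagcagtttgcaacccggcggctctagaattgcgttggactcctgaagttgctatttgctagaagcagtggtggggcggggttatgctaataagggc
B2m: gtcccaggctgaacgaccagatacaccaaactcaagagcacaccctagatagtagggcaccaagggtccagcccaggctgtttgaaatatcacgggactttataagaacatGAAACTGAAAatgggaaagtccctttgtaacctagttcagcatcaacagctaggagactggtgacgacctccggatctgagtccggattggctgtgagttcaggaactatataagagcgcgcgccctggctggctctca
H2-K1: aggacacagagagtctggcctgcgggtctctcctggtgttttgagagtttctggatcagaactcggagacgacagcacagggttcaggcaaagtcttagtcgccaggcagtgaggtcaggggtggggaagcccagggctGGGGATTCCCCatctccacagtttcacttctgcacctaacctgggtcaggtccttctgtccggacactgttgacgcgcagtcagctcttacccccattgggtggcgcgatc
H2-D1: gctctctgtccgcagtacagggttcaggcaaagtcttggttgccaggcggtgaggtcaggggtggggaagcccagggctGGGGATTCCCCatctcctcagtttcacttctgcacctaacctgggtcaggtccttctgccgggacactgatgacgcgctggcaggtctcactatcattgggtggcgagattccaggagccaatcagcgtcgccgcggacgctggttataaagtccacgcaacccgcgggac
Ifitm2: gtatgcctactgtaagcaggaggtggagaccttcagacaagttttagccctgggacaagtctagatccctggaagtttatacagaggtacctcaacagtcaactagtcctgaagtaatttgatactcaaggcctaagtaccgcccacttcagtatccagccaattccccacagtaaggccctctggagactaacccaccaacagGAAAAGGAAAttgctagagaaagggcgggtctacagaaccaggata
Ifitm3: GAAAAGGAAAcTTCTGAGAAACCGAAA

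The interferon response core was found in 4 of the 10 promoters (Ifitm2, Ifitm3, Bst2 and B2m) and in 3.44% of 32851 promoters of the same length. The gamma-activated site was found in 3 (Ifitm3, Bst2 and Psmb8) and in 8.3% of all promoters. The NF-kB palindrome was found in 2 (H2-K1 and H2-D1) and in 16 promoters in all, 0.0487%. The heavy chain promoters share a run of 47 identical bases that includes this match, so it is not an independent match in each. The windows of Ifitm1, Tap1 and Tapbp held none of the 3. Of the 4 genes with the interferon response core, Ifitm2 and Bst2 were called lower in XEN lines than in ESCs, B2m was called higher and Ifitm3 was not called. A link between motif matches and changes was not tested.

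**Figure D1:**
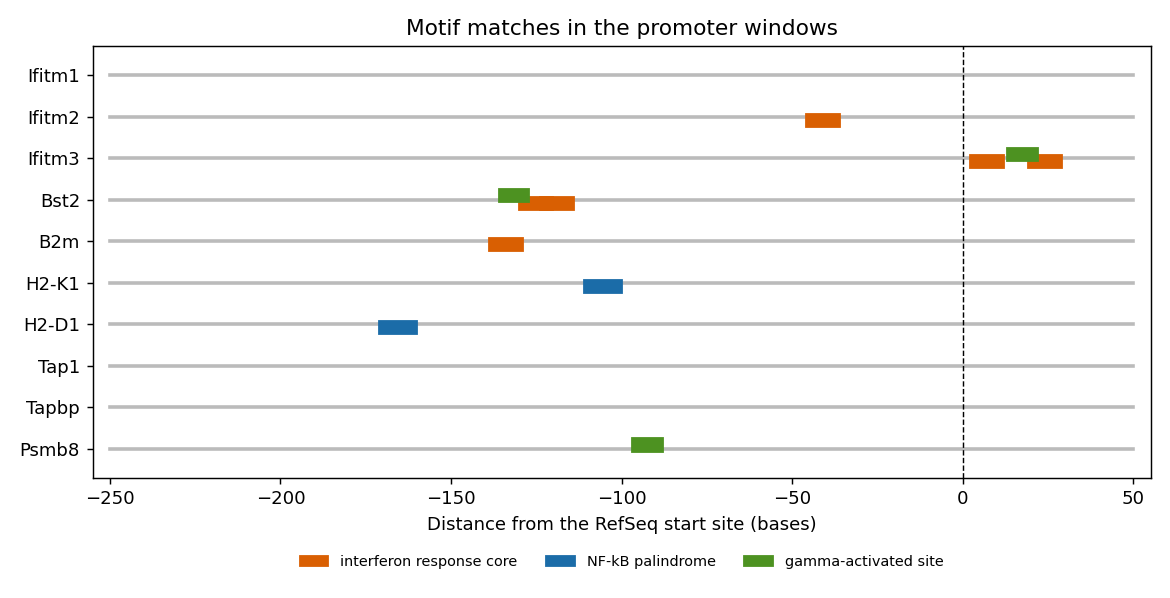
Matches to the 3 motifs in the promoters of the 10 genes, by distance from the first transcribed base in bases (x axis), 1 gene per row. Bst2 and Ifitm3 carry 2 kinds of exact match in a cluster. H2-K1 and H2-D1 match only the NF-kB palindrome of these 3 strings, and Ifitm1, Tap1 and Tapbp match none of them. Sites that depart from the strings are not shown.

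Expression is given as FPKM (fragments per kilobase of transcript scaled to library size), which is scaled to length and so allows comparison between genes, while the file gives no counts and the depth is unknown. The FPKM values sum to between 424406 and 718138 per library. Zfp281 was between 25.1 and 38.6 FPKM in WT3 and Rescue3.34, at most 3.96 in the KO lines and 10.6 and 12.5 in the XEN lines, so no library went against its label. The libraries at cXENp3 went different ways, which bears on every result at that stage. Pou5f1, Sox2, Nanog, Zfp42 and Esrrb together reached 2654 FPKM (WT3) and 1631 (Rescue3.34) at cXENp3, beside the 2116 to 2577 of ESCs, against 65.9 and 328 in the KO lines. The 6 XEN markers (Gata4, Gata6, Sox17, Sox7, Foxa2 and Dab2) summed to 831 and 1071 FPKM in KO cells at cXENp3, to 943 and 1191 in XEN lines, and to at most 12.1 in WT3 and Rescue3.34 at that stage. KO2.6 stood apart earlier, with XEN markers at 43.3 FPKM as ESC and 355 at cXENp1, where no other line passed 5.12 and 45.2. Rescue3.34 at cXENp3 had the highest sum of 7 fibroblast markers, 1245 FPKM against 32.9 (WT3), with Col1a1 at 509, Dcn at 27.9 and Lum at 8.32. Those markers summed to 268 and 340 FPKM in KO cells at cXENp3, to 533 and 607 in XEN lines and to 1.6 to 16.8 in ESCs, and their part in the results below was not tested. A sum of 8 immune and MHC class II markers stayed between 3.29 and 62.2 FPKM, with the leukocyte gene Ptprc at 1.43 or less and Tyrobp at 17.3 in XEN5 and 55.7 in XENB1. In bulk RNA, fewer cells of a type and less RNA per cell cannot be told apart.

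Ifitm2 and Ifitm1 had the highest mean FPKM of the 10 genes in ESCs and fell by cXENp1, and Ifitm1 was at 3.88 FPKM or less in XEN lines. Ifitm1 (XLOC_018510, mm9 chr7:148153328-148155726) stood at 632 FPKM (WT3), 829 (Rescue3.34), 462 (KO3.34) and 70.7 (KO2.6) as ESCs. At cXENp1 it was 47.3 (WT3), 22.7 (Rescue3.34), 31.9 (KO3.34) and 17.2 (KO2.6). At cXENp3 it was 209 (WT3), 55.2 (Rescue3.34), 16.5 (KO3.34) and 6.36 (KO2.6), and the XEN lines had 0.893 (XEN5) and 3.88 (XENB1). Every line was thus lower at cXENp1 than as ESC, and from cXENp1 to cXENp3 the values went up in WT3 and Rescue3.34 and down in both KO lines. The Ifitm1 mean of ESCs was 558 times the level of XEN5 and 128 times that of XENB1.

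Ifitm2 (XLOC_019600, mm9 chr7:148140738-148141860) had 1023 FPKM (WT3), 1050 (Rescue3.34), 1124 (KO3.34) and 703 (KO2.6) as ESCs. At cXENp1 it had 406, 179, 241 and 229 FPKM in the same order. At cXENp3 it had 663 (WT3) and 462 (Rescue3.34) but 119 (KO3.34) and 73.3 (KO2.6), beside 41.1 in XEN5 and 82.8 in XENB1. The Ifitm2 mean of ESCs was 23.7 times the level of XEN5 and 11.8 times that of XENB1, smaller ratios than those of Ifitm1. The pair followed each other closely, with a Pearson r of 0.96 over the 14 libraries on the log2(FPKM + 1) scale, a description over libraries that share lines.

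Ifitm3 (XLOC_019601, mm9 chr7:148195489-148196643) behaved differently. Its ESC values were 107 (WT3), 85 (Rescue3.34), 434 (KO3.34) and 231 (KO2.6). At cXENp1 they were 78.4, 20.1, 196 and 154, and at cXENp3 68.3, 145, 95.2 and 73.1 FPKM in the same order. XEN5 had 41.5 and XENB1 79.5 FPKM. Both KO lines lay above WT3 and Rescue3.34 as ESCs and at cXENp1, and the groups overlapped at cXENp3, where Rescue3.34, the library with the most fibroblast marker RNA, was highest. Ifitm3 made up 47.8% to 49.7% of the FPKM sum of the 3 genes in XEN lines against 4.33% to 22.98% in ESCs, while Ifitm1 went from 7.03% to 42.2% down to 1.07% to 2.34%. The 3 genes are close paralogs on chromosome 7, and how reads that match more than 1 of them were assigned is not given in the sources used here, so their split is uncertain.

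Bst2 (XLOC_020491, mm9 chr8:74058161-74061336) was also an ESC-high gene. It had 154 FPKM (WT3), 151 (Rescue3.34), 188 (KO3.34) and 114 (KO2.6) as ESCs. At cXENp1 it was 32.4 (WT3) and 28.8 (Rescue3.34), against 61.1 (KO3.34) and 111 (KO2.6). At cXENp3 it was 46.8, 22.3, 25 and 57.6 in the same order, and the XEN lines had 17 (XEN5) and 47.5 (XENB1). The Bst2 mean of ESCs was 8.95 times the XEN5 level and 3.19 times that of XENB1. All 4 lines lay below the lowest ESC value at cXENp3.

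**Figure D2:**
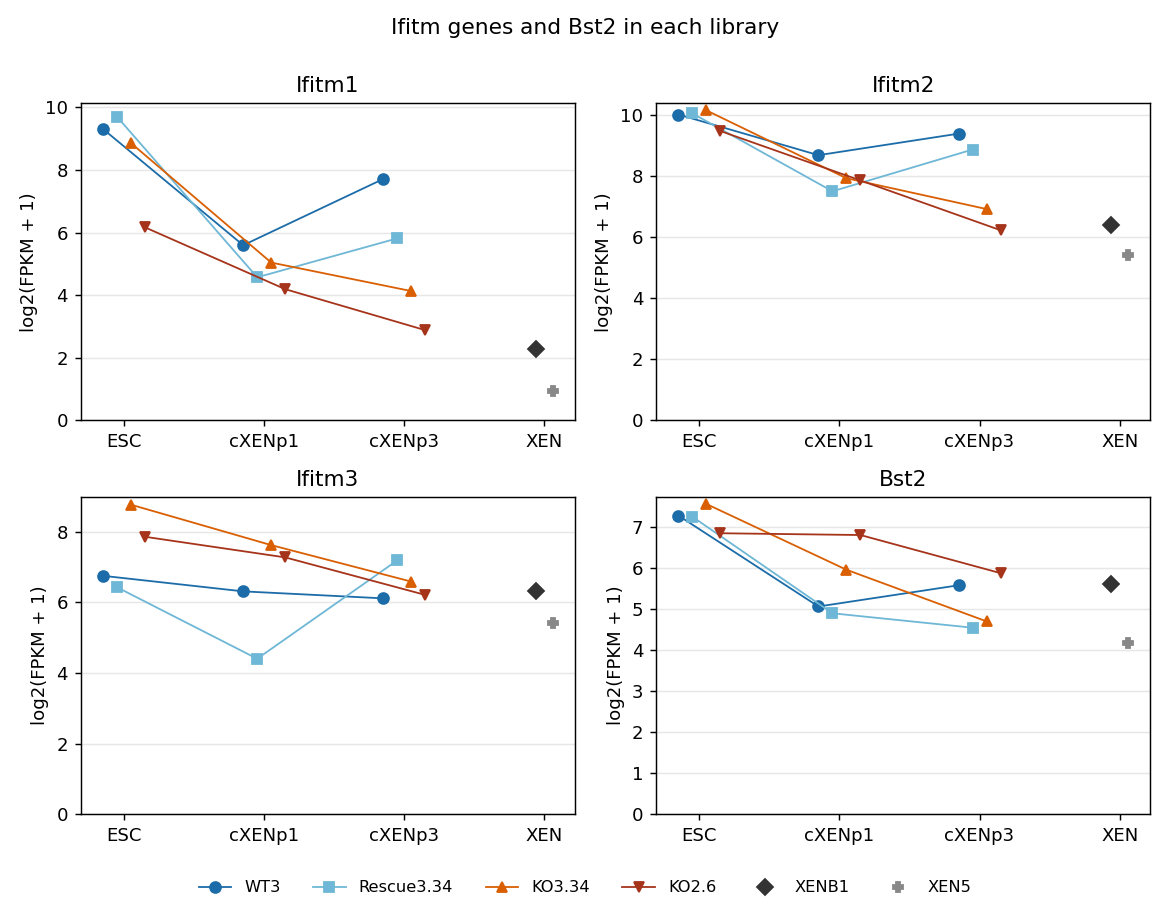
Level as log2(FPKM + 1) (y axis) of Ifitm1, Ifitm2, Ifitm3 and Bst2 by stage, 1 point per library, with lines joining the libraries of a cell line and unjoined points for XEN5 and XENB1. Ifitm1 and Ifitm2 fall in all 4 lines at cXENp1 and part at cXENp3, with WT3 and Rescue3.34 above both KO lines.

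The light chain rose where Ifitm1 and Ifitm2 fell. B2m (XLOC_011180) had 17.8 FPKM (WT3), 13.6 (Rescue3.34), 48.7 (KO3.34) and 28.7 (KO2.6) as ESCs. It had 64.7, 58, 94.4 and 88.2 FPKM at cXENp1 in the same order, so that every line was higher than as ESC. At cXENp3 it was back at 17 (WT3) but stood at 93.2 (Rescue3.34), 194 (KO3.34) and 421 (KO2.6), and the XEN lines had 407 (XEN5) and 273 (XENB1). WT3 and Rescue3.34 thus differed at cXENp3, where Rescue3.34 also had the most fibroblast marker RNA, whose part was not tested. The B2m mean was 12.5 times higher in XEN lines than in ESCs. Its locus in the table (mm9 chr2:121945844-122011925) spans 66.08 kb and is also that of the rows Patl2 and Trim69, while each symbol keeps a value of its own.

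H2-D1 (XLOC_008454), a classical heavy chain, had 11.6 FPKM (WT3), 6.13 (Rescue3.34), 11.9 (KO3.34) and 20.1 (KO2.6) as ESCs. At cXENp1 it had 15.2, 28.6, 36.1 and 42.4 in that order. At cXENp3 it was 11.9 (WT3), 9.12 (Rescue3.34), 48.2 (KO3.34) and 187 (KO2.6), against 83.2 in XEN5 and 141 in XENB1. Its mean was 9.03 times higher in XEN lines than in ESCs. At cXENp3 KO2.6 was at 17.8 times and KO3.34 at 4.58 times the mean of WT3 and Rescue3.34. The H2-D1 locus (mm9 chr17:35400039-35462354) is shared with the row H2-Q1, which was at 0.362 FPKM or less.

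H2-K1 (XLOC_008951, mm9 chr17:34132957-34137278), the other classical heavy chain, had another pattern. As ESCs it had 27.3 FPKM (WT3), 19.5 (Rescue3.34), 39.5 (KO3.34) and 17.1 (KO2.6), and at cXENp1 24.8, 40.2, 67.9 and 69.1 in that order. At cXENp3 it had 20.9 (WT3), 10.6 (Rescue3.34), 21.4 (KO3.34) and 129 (KO2.6), and the XEN lines had 40.5 (XEN5) and 66.9 (XENB1). The 2 KO lines thus lay far apart at cXENp3, and KO3.34 lay with WT3. H2-D1 ran at 0.301 to 1.18 times the level of H2-K1 in ESCs and at 2.06 and 2.11 times in the XEN lines. Reads that match both heavy chains could have been split between them, so their ratio is uncertain.

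The genes that feed the heavy chains lay below B2m in every library. Tapbp (XLOC_008401, mm9 chr17:34056423-34066235) had 9.27, 7.85, 13.3 and 13 FPKM as ESCs in WT3, Rescue3.34, KO3.34 and KO2.6, and 7.86, 6.97, 12.9 and 18.4 at cXENp1. It had 15.8, 9.29, 24.9 and 69.8 at cXENp3, and 12.7 and 24.2 in XEN5 and XENB1. At cXENp3 KO2.6 thus stood far above both XEN lines, and KO3.34 stood above XEN5 and just above XENB1. Tap1 (XLOC_008412, mm9 chr17:34324501-34334170) had 1.5, 3.5, 2.52 and 2.41 FPKM as ESCs in the same line order. It had 7.99, 3.22, 6.05 and 10.8 at cXENp1, 2.51, 5.48, 7.04 and 15.7 at cXENp3, and 7.53 and 2.58 in XEN5 and XENB1. The XEN lines did not share a Tap1 level, and XENB1 lay within the ESC range. Psmb8 (XLOC_008413, mm9 chr17:34335140-34338399) was the scarcest, listed at 0 in both KO ESC libraries and at 0.255 (WT3) and 0.059 (Rescue3.34). It had 0.372, 1.12, 3.11 and 1.83 FPKM at cXENp1 in the order WT3, Rescue3.34, KO3.34 and KO2.6, then 1.66, 1.5, 0.725 and 1.81 at cXENp3, with 1.14 in XEN5 and 2.91 in XENB1. Psmb8 was therefore low in all 14 libraries, and its fitted changes rest on values near the added constant of 1.

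**Figure D3:**
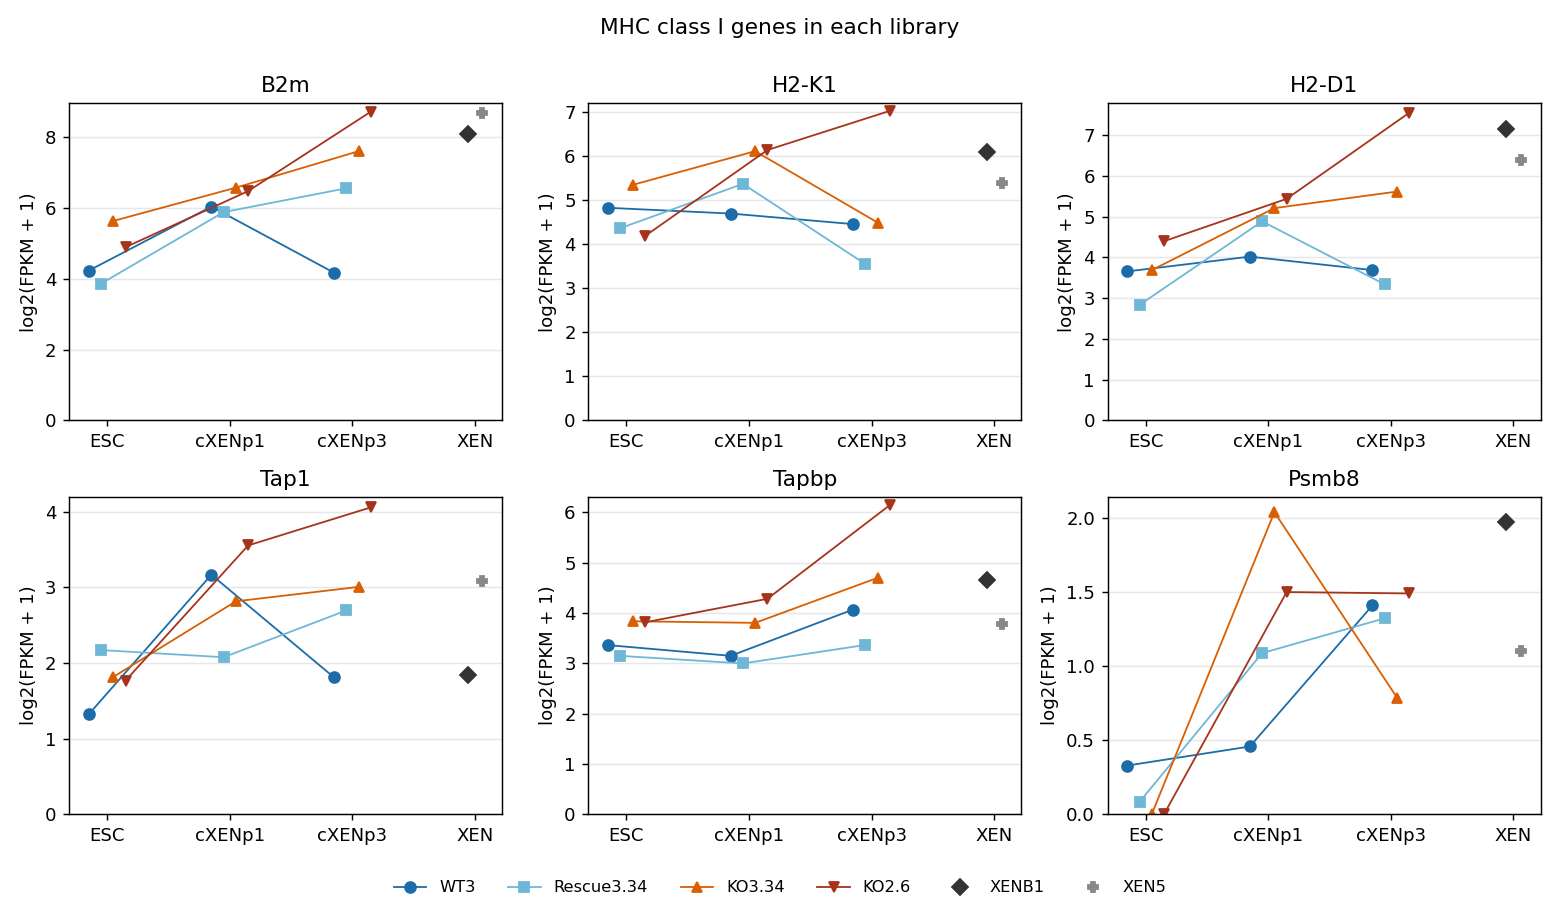
Level as log2(FPKM + 1) (y axis) of B2m, H2-D1, H2-K1, Tapbp, Tap1 and Psmb8 by stage, 1 point per library, with lines joining the libraries of a cell line and unjoined points for XEN5 and XENB1. At cXENp3 both KO lines lie above WT3 and Rescue3.34 for B2m, H2-D1, Tapbp and Tap1, while for H2-K1 only KO2.6 stands clear of the rest.

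The XEN lines were set against the 4 ESC libraries. XEN5 and XENB1 are lines of their own, not a later stage of the 4 course lines. Falls and rises in this comparison are therefore differences between lines, not changes followed over time. Changes here and below are differences of log2(FPKM + 1), with standard errors and Benjamini-Hochberg adjusted p-values over all genes from limma, and a gene was called when its adjusted p was under 0.05. The scale understates changes of low genes. In this comparison 41.9% of 12372 genes were called, and so were 5 of the 9 members that reached 1 FPKM in both groups. The other, Psmb8, passed the filter on low values through the XEN libraries alone (1.14 and 2.91 FPKM against 0.255 or less in ESCs), so that a difference was built in and no test is given for it. Ifitm1 fell by 6.90 (SE 0.92, limma adjusted p = 0.000869), Ifitm2 fell by 4.02 (SE 0.32, adjusted p = 7.87e-05) and Bst2 fell by 2.35 (SE 0.39, adjusted p = 0.00236), while 19.7% of all genes were called lower. B2m rose by 3.73 (SE 0.47, limma adjusted p = 0.000677) and H2-D1 by 3.13 (SE 0.42, adjusted p = 0.000928), while 22.2% of all genes were called higher. H2-K1 had a change of 1.05 (SE 0.37, limma adjusted p = 0.0502), which narrowly missed the threshold. Ifitm3 (-1.58, SE 0.63), Tap1 (0.70, SE 0.40) and Tapbp (0.68, SE 0.34) were not called. The median over the 9 was 0.68, against -0.02 over all genes tested. Without KO3.34, H2-K1 was called (1.28, limma adjusted p = 0.0228), and without Rescue3.34 Ifitm3 was (-1.92, adjusted p = 0.0318). Sample descriptions begin with JH for 3 of the ESC libraries and with XH for the other 11, and KO2.6 is the sole ESC library among the latter, so prefix and ESC stage cannot be told apart in the other lines.

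The first step of the course, from ESC to cXENp1, was tested over the 4 lines with line as a block. It called 47.3% of 13191 genes and 7 of the 10 (Psmb8, below 1 FPKM in every ESC library, passed the filter through cXENp1 and cXENp3), with 23.3% of all genes lower and 24% higher. Ifitm1 fell by 3.66 (SE 0.39, limma adjusted p = 0.000387), Ifitm2 fell by 1.93 (SE 0.22, adjusted p = 0.000473) and Bst2 fell by 1.55 (SE 0.31, adjusted p = 0.00474). B2m rose by 1.59 (SE 0.46, limma adjusted p = 0.0225), H2-D1 by 1.25 (SE 0.33, adjusted p = 0.0157) and Tap1 by 1.14 (SE 0.35, adjusted p = 0.0276). Psmb8, counted among the 7, was 1.17 higher (SE 0.24). With all its ESC values below 1 FPKM, part of this difference was built in by the filter, so its call carries no weight. Ifitm3 (-1.05, SE 0.40, limma adjusted p = 0.0586), H2-K1 (0.90, SE 0.52) and Tapbp (0.02, SE 0.24) were not called. The median was 0.46 against 0 over all genes. The immune and MHC class II marker sum was 9.08 to 40.9 FPKM at cXENp1 and 4.12 to 10.5 in ESCs, and Cd74, the class II invariant chain, was 2.36 higher at cXENp1 (SE 0.36, limma adjusted p = 0.00158). The part of these markers in the changes was not tested. KO2.6, whose 2 libraries share a prefix, had its own changes of -1.97 for Ifitm1, -1.62 for Ifitm2, 1.59 for B2m and 1.04 for H2-D1, but of only -0.04 for Bst2. Calls among the genes that rose changed with single lines: without KO2.6, B2m (1.43, limma adjusted p = 0.0769) was not called, and without Rescue3.34, H2-D1 (0.82, adjusted p = 0.127) and Psmb8 (0.95, adjusted p = 0.0637) were not. Tap1 was not called without WT3 (0.65, limma adjusted p = 0.166), KO2.6 (0.94, adjusted p = 0.12) or KO3.34 (1.33, adjusted p = 0.0523), while Ifitm3 was called without WT3 (-1.44, adjusted p = 0.00719) and H2-K1 without KO3.34 (1.20, adjusted p = 0.0294). With 1 stage effect for all lines, B2m, H2-D1 and Tap1 were not called (limma adjusted p = 0.0624, 0.102 and 0.0551). Without the filter on low values B2m and Tap1 were not called (limma adjusted p = 0.0531 and 0.0631), nor was Tap1 after quantile normalization (adjusted p = 0.0503).

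From cXENp1 to cXENp3 the KO lines and the lines with Zfp281 parted. In the KO lines 22.5% of all genes were called, 9.58% lower and 12.9% higher. Ifitm2 fell by 1.32 (SE 0.31, limma adjusted p = 0.0198) and Tapbp rose by 1.38 (SE 0.34, adjusted p = 0.0226). The other 8 genes were not called, among them Ifitm1 (-1.11, SE 0.55), B2m (1.64, SE 0.65) and H2-D1 (1.26, SE 0.47). Both calls were lost without KO2.6 (Ifitm2 -1.01, limma adjusted p = 0.21, and Tapbp 0.90, adjusted p = 0.11), and Ifitm2 also without KO3.34 (-1.63, adjusted p = 0.0752). In WT3 and Rescue3.34, where 10.5% of all genes were called, limma called 0 of the 10, and 3 had an unadjusted p under 0.05: Ifitm1 (1.68, SE 0.55), Ifitm2 (1.03, SE 0.31) and Ifitm3 (1.30, SE 0.56). Ifitm3 was called there with Rescue3.34 alone (2.79, limma adjusted p = 0.0374). The difference between the 2 changes was tested as an interaction, which called 12% of all genes, 4.65% lower, and Ifitm2 among the 10. The change in KO lines minus that in WT3 and Rescue3.34 was -2.35 (SE 0.44, limma adjusted p = 0.0187). Ifitm1 had a difference of -2.79 (SE 0.78, limma adjusted p = 0.0544) and H2-D1 of 2.20 (SE 0.66, adjusted p = 0.0646). Leaving out WT3, KO2.6 or Rescue3.34 ended the call of Ifitm2 (-2.68, -2.04 and -2.02, limma adjusted p = 0.102, 0.0922 and 0.0711), and without KO3.34 H2-D1 was called (3.06, adjusted p = 0.0417).

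Loss of Zfp281 was examined within each stage by setting KO2.6 and KO3.34 against WT3 and Rescue3.34, the Zfp281-present lines. At cXENp3, 5 of the 10 genes were called, where 41.9% of all 13191 were. The difference, KO minus the others, was -3.26 for Ifitm1 (SE 0.86, limma adjusted p = 0.0138) and -2.55 for Ifitm2 (SE 0.40, adjusted p = 0.00117), with 19% of all genes lower. H2-D1 was higher by 3.07 (SE 0.56, limma adjusted p = 0.00262), B2m by 2.80 (SE 0.64, adjusted p = 0.00712) and Tapbp by 1.71 (SE 0.42, adjusted p = 0.00984), with 22.9% of all genes higher. H2-K1 (1.76, SE 0.70, limma adjusted p = 0.0677) and Tap1 (1.28, SE 0.51, adjusted p = 0.0663) did not pass the threshold. Ifitm3 (-0.25, SE 0.57), Bst2 (0.23, SE 0.46) and Psmb8 (-0.23, SE 0.31) were not called. The groups did not overlap in 7 of the 10 genes (the 5 called, H2-K1 and Tap1), where 72.9% of all genes did not overlap. The median was 0.75 against 0.01 over all genes.

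Single lines decided part of the cXENp3 contrast. Ifitm2 (-2.90 to -2.21, limma adjusted p = 0.00384 to 0.0287) and H2-D1 (2.11 to 4.04, adjusted p = 0.00114 to 0.0425) were called whichever of the 4 lines was left out. Without WT3, Ifitm1 (-2.31, limma adjusted p = 0.193), B2m (1.61, adjusted p = 0.0937) and Tapbp (2.06, adjusted p = 0.0704) were not called. Without KO2.6, B2m (2.24, limma adjusted p = 0.08) and Tapbp (0.98, adjusted p = 0.0556) were not, and without Rescue3.34 Tapbp (1.35, adjusted p = 0.126) was not. Without KO3.34, H2-K1 (3.03, limma adjusted p = 0.00259) and Tap1 (1.81, adjusted p = 0.043) were called. ESC and XEN marker sums moved with these groups, as given above, and whether the 10 genes differ beyond that was not tested.

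The same contrast of KO and Zfp281-present lines gave few calls at the earlier stages. As ESCs, limma called 1.97% of all genes and 0 of the 10, of which 2 had an unadjusted p under 0.05. Ifitm3 was at 1.72 (SE 0.57, limma adjusted p = 0.128) and Ifitm1 at -1.99 (SE 0.86, adjusted p = 0.222). KO2.6 was the low library for Ifitm1, and without KO3.34 the difference was -3.34. That fit sets KO2.6 alone, with prefix XH and XEN markers at 43.3 FPKM, against WT3 and Rescue3.34 with prefix JH. Line, prefix and Zfp281 status cannot be told apart in it, and KO3.34, the other KO line, had 462 FPKM of Ifitm1. At cXENp1, limma called 0.485% of all genes and 0 of the 10, of which 4 had an unadjusted p under 0.05. There the KO lines lay above both other lines, without overlap, in 7 of the 10 genes, and below them in 0. Of all genes 27.2% lay above and 20.6% below in that way, 47.7% in all. These 7 were Ifitm3 (2.09, SE 0.57), Bst2 (1.40, SE 0.46), H2-K1 (1.09, SE 0.70), Psmb8 (1.00, SE 0.31), Tapbp (0.97, SE 0.42), H2-D1 (0.87, SE 0.56) and B2m (0.57, SE 0.64). The median was 0.92 against 0.04 over all genes. With 2 libraries a side and 0 calls, this describes these 4 libraries. Marker sums moved with the same groups at cXENp1. The immune and MHC class II sum was 24.9 FPKM (KO2.6) and 40.9 (KO3.34) against 9.08 (WT3) and 13.3 (Rescue3.34), and 4 of its 5 tested genes lay higher in KO lines without overlap. Cd74 made up most of it, with 19.3 (KO2.6) and 32.9 (KO3.34) against 6.97 (WT3) and 10.2 (Rescue3.34), while Ptprc was listed at 0 in all 4. The fibroblast sum went the other way, at 7.83 (KO2.6) and 15.7 (KO3.34) against 59.4 (WT3) and 50.4 (Rescue3.34). The part of these markers in the differences was not tested.

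**Figure D4:**
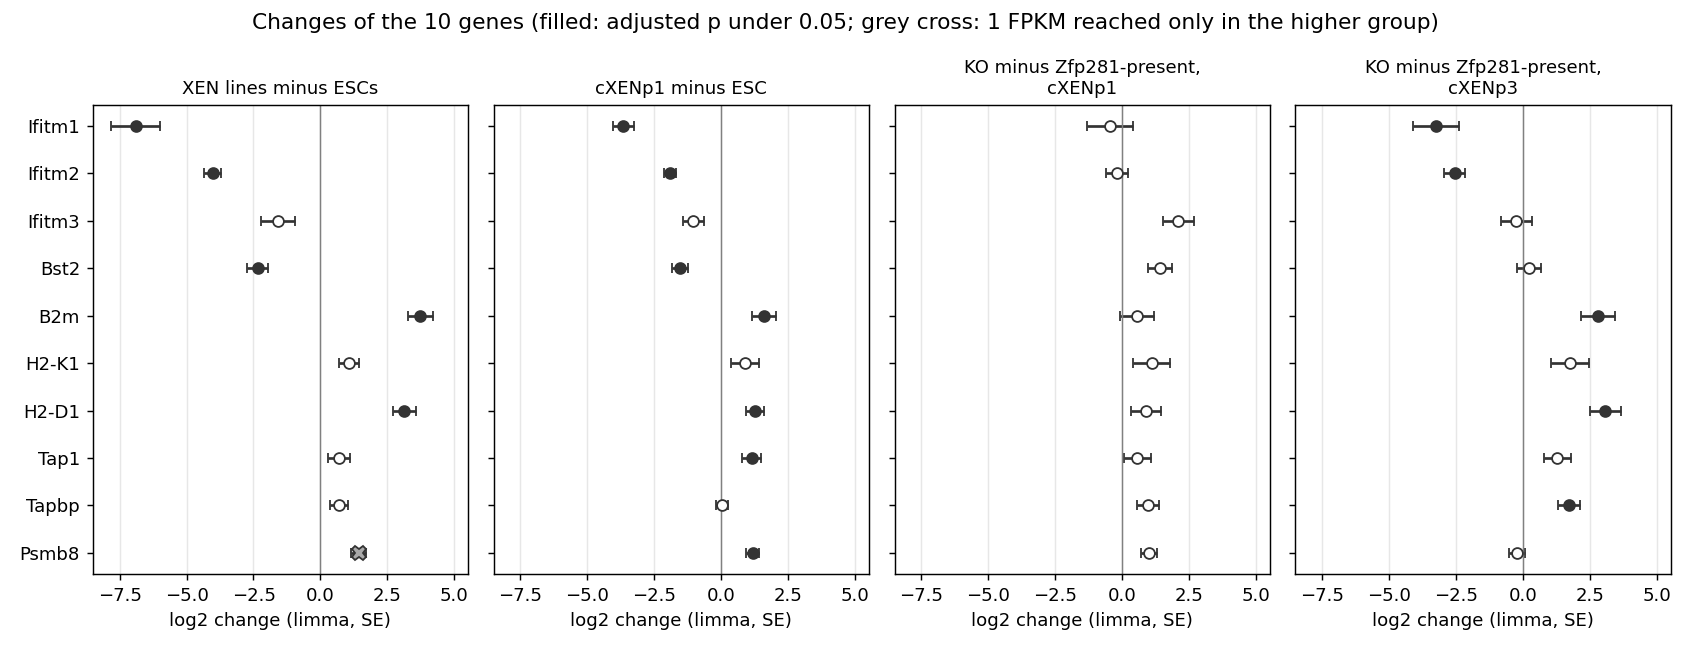
Differences of log2(FPKM + 1) with standard errors from limma (x axis) for the 10 genes in 4 comparisons, with filled points for adjusted p under 0.05 and a grey cross for Psmb8 in XEN lines minus ESCs, which reached 1 FPKM in the XEN lines alone. Called points lie below 0 for Ifitm1 and Ifitm2 and above 0 for B2m and H2-D1 in every panel but that of KO minus Zfp281-present lines at cXENp1, which holds 0 called points.

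The KO cells at cXENp3 were then set beside the XEN lines. In 14 libraries limma called 4.12% of 13386 genes and 0 of the 10, of which 1 had an unadjusted p under 0.05. The differences, KO minus XEN, were -0.22 (SE 0.62) for B2m, -0.19 (SE 0.56) for H2-D1, 0.02 (SE 0.68) for H2-K1 and 0.67 (SE 0.43) for Ifitm2. Those of Ifitm1 (1.90, SE 0.87) and Tapbp (1.20, SE 0.44) were larger. Without KO3.34, Tapbp was called (1.93, limma adjusted p = 0.0361). With these standard errors, the lack of calls does not show that KO cells at cXENp3 and XEN lines have equal levels.

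The wider pathway was read from lists of genes that work with the 10, beside the shares of all genes called in each comparison given above. Of 6 peptide loading and trimming genes, 4 were higher and 0 lower past the threshold in KO lines at cXENp3, with a median of 1.15 against 0.01 over all genes. In XEN lines 3 of 4 tested were higher than in ESCs, with a median of 1.51 against -0.02 over all genes. Calr, a chaperone of the loading complex, had 1772 FPKM (KO2.6) and 2980 (KO3.34) against 398 (WT3) and 495 (Rescue3.34) at cXENp3 (2.37, SE 0.43, limma adjusted p = 0.00233). Pdia3, the oxidoreductase of that complex, had 828 and 1060 against 172 and 261 FPKM in the same order (2.14, SE 0.30, limma adjusted p = 0.00076). Both serve glycoprotein folding in general. Of the other heavy chains, 0 of 8 tested were called at cXENp3 by limma, with an unadjusted p under 0.05 in 0 and a median of 0.01. In XEN lines against ESCs 4 reached 1 FPKM in both groups, of which limma called 0, with an unadjusted p under 0.05 in 1. H2-T23, the nonclassical Qa-1 chain, passed the filter through the XEN libraries alone, with 5.24 FPKM (XEN5) and 8.97 (XENB1) against 0.227 or less in ESCs. At cXENp1, 3 of 7 were called higher than in ESCs and 0 lower, leaving out H2-Q8, which reached 1 FPKM at cXENp1 alone.

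The partners of Psmb8 were read in the same comparisons. Of 4 other immunoproteasome genes, 0 were higher and 1 lower in XEN lines (Psmb9, -0.89, SE 0.28, limma adjusted p = 0.0344), and 0 higher and 1 lower in KO lines at cXENp3 (Psmb10, -1.20, SE 0.32, adjusted p = 0.0153). Their medians were -0.66 and -0.31. Of all genes 19.7% were called lower in XEN lines and 19% in KO lines at cXENp3, so 1 of 4 is near those shares. Of the 3 constitutive proteasome subunits, 0 were called in either comparison by limma, and 0 had an unadjusted p under 0.05.

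Of 14 tested genes of interferon signalling and of MHC class I regulation, 10 were called higher and 1 lower in KO lines at cXENp3, with a median of 1.41, and 6 higher and 1 lower of 13 in XEN lines, with a median of 0.95. Irf2 is left out of the latter, as no ESC library reached 1 FPKM. Ifngr2, a chain of the interferon gamma receptor, had 49.7 FPKM (KO2.6) and 23.6 (KO3.34) against 3.68 (WT3) and 10 (Rescue3.34) at cXENp3 (2.30, SE 0.42, limma adjusted p = 0.00267). It was 3.07 higher in XEN lines than in ESCs (SE 0.29, limma adjusted p = 0.000185). Ifngr1, its partner chain, was at 20.8 and 11.8 FPKM in XEN5 and XENB1 and at 2.41 or less in ESCs (limma adjusted p = 0.000645). Irf2, an interferon regulatory factor, was 2.31 higher in KO lines (SE 0.41, limma adjusted p = 0.0022). Irf1, a transcriptional activator of MHC class I genes, was the exception in both, lower in KO lines at cXENp3 (-1.76, SE 0.34, limma adjusted p = 0.00339) and in XEN lines (SE 0.44, adjusted p = 0.00847). Irf1 had 23.8 FPKM (WT3), 13.6 (Rescue3.34), 4.82 (KO2.6) and 4.42 (KO3.34) at cXENp3, and 1.28 and 1.26 in XEN5 and XENB1. Nlrc5, the MHC class I transactivator, was at 0.311 FPKM or less in every library and was not tested.

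Of 13 interferon-stimulated genes tested, 1 was called higher and 0 lower in KO lines at cXENp3, Oasl2, an oligoadenylate synthetase family gene (1.72, SE 0.48, limma adjusted p = 0.0174). Oasl2 was at 9.56 FPKM (KO2.6) and 1.84 (KO3.34). The median in KO lines was 0.46. In XEN lines against ESCs 5 reached 1 FPKM in both groups, of which limma called 0, with an unadjusted p under 0.05 in 0 and a median of -0.0025. Of the 22 listed genes 9 passed the filter, 4 of them through the higher group alone. The lack of calls among the 5 thus does not show that the list was unchanged. Isg15, a ubiquitin-like modifier, Oasl2 and Irgm1 passed the filter through the XEN libraries alone, so their values are given without a test. Isg15 was at 4.29 and 8.5 FPKM in XEN5 and XENB1 and at 0.0989 or less in ESCs. Oasl2 was at 2.73 and 3.65 FPKM in those lines and at 0.0956 or less in ESCs. Irgm1 had a mean log2(FPKM + 1) of 2.07 in XEN lines and was at 0.3711 FPKM or less in ESCs. For cXENp1 against ESCs no count of calls is given. Ifit2 and Gbp3 reached 1 FPKM in only 1 course library outside cXENp1, so cXENp1 carried them past the filter and a difference was built in. Gbp2, at 0 in ESCs, Oasl2 and Irgm1 were also below 1 FPKM in every ESC library. Of the other Ifitm genes only Ifitm5 passed the filter, beside XEN lines through ESC libraries alone, with 0.67 to 2.11 FPKM in ESCs and a listing at 0 in both XEN lines.

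**Figure D5:**
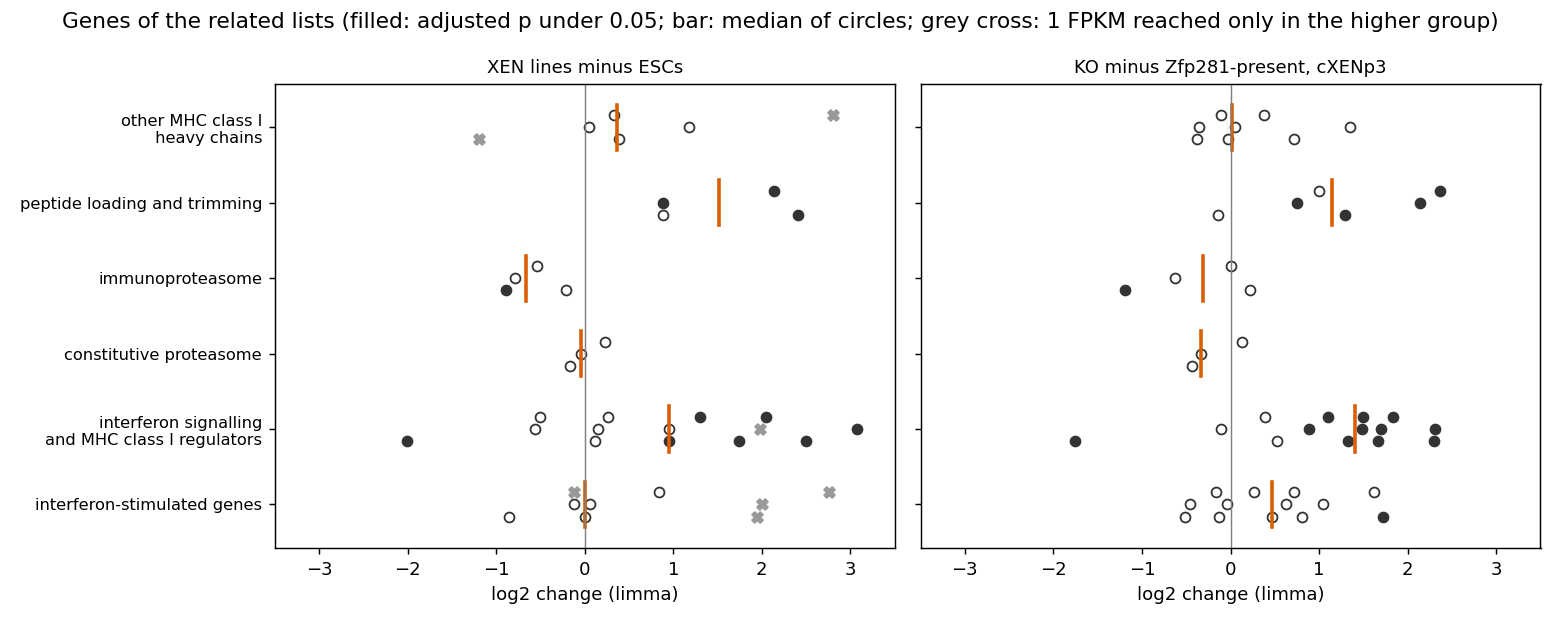
Difference of log2(FPKM + 1) (x axis) of each tested gene of 6 pathway lists, 1 point per gene, for XEN lines minus ESCs and for KO minus Zfp281-present lines (WT3 and Rescue3.34) at cXENp3, with filled points for limma adjusted p under 0.05, grey crosses for genes that reached 1 FPKM in the higher group alone, and a bar at the median of the rest. Interferon signalling and regulator genes, the list with the most tested genes, give the most calls (10 higher and 1 lower of 14 in KO lines, where 41.9% of all genes were called). Other heavy chains and the constitutive proteasome give 0 in both panels.

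Across the 14 libraries, the genes whose log2(FPKM + 1) profiles were most like that of Ifitm1, of 13386 compared, were Kif26a (Pearson r 0.98), Bahcc1 (0.98) and Acacb (0.97). For B2m they were Ginm1 (0.97), Selm (0.97) and Mcfd2 (0.96), and for H2-K1 they were Prkd2 (0.89), Nudt18 (0.88) and Uckl1 (0.87). None of the 10 was among these. Within the 10, B2m ran opposite to Ifitm1 (r = -0.91) and Ifitm2 (-0.92) and with H2-D1 (0.87), while its r with H2-K1 was 0.56. The 12 course libraries come from 4 lines, so the points are not independent and no p is given.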

How the data were processed

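PolyA RNA had been sequenced as paired reads of 150 bp, per the labels' protocols. The submitters' processing notes name STAR 2.5.3, Cufflinks 2.1.1 and the build mm9, with no roles. The authors deposited 1 table of 23174 rows and 14 columns, with no unit named. The authors deposited these values after Cufflinks, per the submitters' processing notes, and they were taken as FPKM (fragments scaled to length and library size) because they are not whole, never negative, sum differently per library and carry Cufflinks locus identifiers. No counts are given, so the depth is unknown and no interval or detection limit was computed.

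The 10 genes, the pathway and marker lists and the rules were chosen with earlier results of these data known. The genes named are these 10, Zfp281, up to 2 called genes per direction and list in XEN against ESC and in KO lines at cXENp3, and the 3 nearest profiles of Ifitm1, H2-K1 and B2m. H2-Q1, H2-Q8, Cd74, Nlrc5, Ptprc, Tyrobp, Col1a1, Dcn, Lum, Ifit2, Gbp2, Gbp3 and Irgm1 were named after their values were seen.

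Values were analysed as log2(FPKM + 1). Genes with at least 1 FPKM in at least 2 fitted libraries were kept. Linear models were fitted over all kept genes in 9 comparisons with limma 3.58.1 in R 4.3.3 (trended eBayes), with a call where its p, adjusted over all kept genes by Benjamini and Hochberg, was under 0.05. All 10 genes passed the filter in each comparison, Psmb8 against ESCs through the XEN libraries alone, and genes that reached 1 FPKM in the higher group alone are left out of counts and medians and given as values. Stage comparisons used 12 libraries with line as a block, since the libraries of a line come from the same cell line, and stage effects were fitted separately for KO and Zfp281-present lines. Comparisons within a stage used 6 groups of 2, and the comparison with XEN lines 7 groups of 2, with a shared spread. These fits hold no term for line, though each course line recurs at 3 stages and Rescue3.34 derives from KO3.34, so their p-values ignore both dependences. No 2 libraries held identical values. The fits were checked on simulated data. Promoters came from RefSeq (GRCm38.p6), and table coordinates (mm9) were not converted. Alternatives covered the pseudocount (0.1), the filter, quantile normalization, eBayes without trend, the block, the prefix as a term and leaving out each line. Python 3.11.15, pandas 2.3.3 and matplotlib 3.10.9 were used.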

Additional observations from a re-analysis of the deposited data

Results flagged for a closer look

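The change of Ifitm2 from cXENp1 to cXENp3 differed between the groups of lines, by the test of the difference itself: the change in KO lines minus that in WT3 and Rescue3.34 was -2.35 on the log2 scale (limma adjusted p = 0.0187). Ifitm2 went down in both KO lines (-1.63 in KO2.6 and -1.01 in KO3.34) and up in WT3 (0.70) and Rescue3.34 (1.37). The call was lost when WT3, KO2.6 or Rescue3.34 was left out, with differences of -2.68, -2.04 and -2.02. The ESC markers moved the same way, and their part in the Ifitm2 difference was not tested.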

How the results depend on the processing

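Nothing but line identity pairs the libraries; without the replicate block on line the counts of calls stayed at 7 (cXENp1 against ESC), 2 and 0 (cXENp3 against cXENp1 in KO and in WT3 and Rescue3.34) and 1 (their difference), and no call changed. With 1 stage effect for all lines, cXENp1 against ESC called 4. The difference of the cXENp3 changes called 2 of the 10 genes with a pseudocount of 0.1 and 2 with quantile normalization, which added Ifitm1 (adjusted p = 0.0499 and 0.044 by limma).

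For XEN against ESC, leaving out an ESC line lost none of the 5 calls of genes that reached 1 FPKM in both groups. It added H2-K1 without KO3.34 and Ifitm3 without Rescue3.34. Leaving out 1 line at a time assumes that a lone library varies like the other groups. For cXENp1 against ESC it gave 5 to 7 calls, with Psmb8 among the genes counted. It gave 0 to 1 for cXENp3 against cXENp1 in KO lines, 0 to 1 in WT3 and Rescue3.34, 0 to 2 for their difference, 0 to 1 for KO lines as ESCs, 2 to 7 at cXENp3 and 0 to 1 for KO lines against XEN. Without either XEN line, Psmb8 no longer passed the filter for XEN against ESC.

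With quantile normalization, Tapbp at cXENp1 against ESC (-0.0237) and Bst2 from cXENp1 to cXENp3 in WT3 and Rescue3.34 (-0.0985) changed sign. With prefix as a term, Ifitm2 (0.1165) and Bst2 (0.2958) did so in KO ESCs. Leaving out a line turned the sign of 29 values, none of them called when all lines were fitted. Their ranges, as log2 differences over the left-out lines, follow. At cXENp1 against ESC, Tapbp ranged from -0.1064 to 0.1431. From cXENp1 to cXENp3 in WT3 and Rescue3.34, Ifitm3 ranged from -0.1978 to 2.7879, Bst2 from -0.351 to 0.5169, B2m from -1.8671 to 0.6733 and Tap1 from -1.3585 to 0.619, and in KO lines H2-K1 from -1.6215 to 0.8899. The difference of these changes ranged from -0.5905 to 1.921 for H2-K1 and from -0.2719 to 1.7055 for Tap1. For KO lines as ESCs, the ranges were -0.5589 to 0.1165 (Ifitm2), -0.4169 to 0.2958 (Bst2), -0.4125 to 0.7503 (H2-K1) and -0.3793 to 0.4699 (Tap1). At cXENp1 they were -0.9795 to 0.0459 (Ifitm1) and -0.7902 to 0.3909 (Ifitm2), and at cXENp3 -0.7907 to 0.2859 (Ifitm3), -0.3624 to 0.8128 (Bst2) and -0.5787 to 0.1241 (Psmb8). For KO lines against XEN they were -0.3152 to 1.1197 (Bst2), -0.7784 to 0.3382 (B2m), -1.2446 to 1.2931 (H2-K1), -1.1548 to 0.7819 (H2-D1) and -0.8309 to 0.0394 (Psmb8). The cause was not tested, and the unknown depth limits what can be said of low genes such as Psmb8.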
